A study of Mus musculus with 12 samples.

Results

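Cd209f positive meningeal macrophages were examined in single-cell libraries of the meninges of newborn mice. They were the cells with at least 1 UMI (unique molecular identifier, a tag that marks 1 captured RNA molecule) of Cd209f and at most 1 UMI of Lyve1, within a macrophage gate. The gate took cells in which Mrc1, Cd163, F13a1, Cbr2 and Pf4 together had at least 10 UMIs and more than the microglial genes Sparc, P2ry12, Tmem119 and Sall1 together. It held 16272 of 21689 kept cells, and 122 of them were Cd209f positive by this rule. The limit on Lyve1 removed most of the cells with Cd209f RNA: 3181 cells of the gate had a Cd209f UMI, and 3059 of these had 2 or more UMIs of Lyve1. The limit fell on no gap, since 64 Cd209f positive gate cells had 0 Lyve1 UMIs, 58 had 1, 66 had 2 and 58 had 3. The cells were thus chosen by their measured counts of 11 genes, and these genes are given as a description below, with no test.

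Cd209f belongs to the mouse family of C-type lectins around Cd209a, the gene called mouse DC-SIGN. These are calcium-dependent, sugar-binding receptors on the surface of macrophages and dendritic cells, and SIGN-R1, the product of Cd209b, captures bacterial polysaccharides in the marginal zone of the mouse spleen. Macrophages of the meninges and perivascular spaces, called border-associated macrophages, are marked by Mrc1, Cd163, Pf4 and Lyve1, and they take up debris and soluble material at the edge of the brain. Ccl24 (eotaxin-2), a chemokine that attracts eosinophils, and Tslp, a cytokine of barrier tissues that favours type 2 immunity, accompany Cd209f in the working description of these cells.

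The groups were hypoxic-ischemic (HI) mice, a model of newborn brain injury by low oxygen and blood flow, taken 6 h after the insult, and naive mice, with 2 libraries each. All were C57Bl/6j mice of postnatal day 4, and each library was a pool of 12 mice, 6 males and 6 females. No sham-operated group was used here, so surgery and HI cannot be told apart. The libraries were processed in 2 runs, each with 1 HI and 1 naive library, but the labels do not say which numbers shared a run. No label states that the pools of a group came from separate litters or days, so the p-values measure only the spread between these libraries.

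The 4 libraries held 51986763 to 68543046 UMIs in all. The Cd209f positive cells numbered 15 and 14 in the HI libraries (HI 1 and HI 2), against 50 and 43 in the naive libraries (naive 1 and naive 2). Their summed UMIs were 152167 and 117003 in HI, against 484448 and 409981 in naive, so the HI sums rest on few cells. Median UMIs per cell were 9598 and 6696.5 in HI and 8467.5 and 8658 in naive for Cd209f positive cells, below the 10026 to 11427.5 of the other macrophages. With every cell thinned to 3000 UMIs, the median Cd209f positive cell showed 1324 to 1407 genes. Between 29 and 55 cell barcodes occurred in both libraries of a pair, and no barcode was shared by Cd209f positive cells of 2 libraries.

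The upstream sequences of Cd209f and Cd209g are shown because Cd209f chose the cells and the windows of the 2 genes share a long run. RefSeq (GRCm38.p6) places all 7 family members on chromosome 8. Cd209f lies at 4102784 to 4105838 and Cd209g at 4134246 to 4137707, with Cd209b at 3917655 to 3926841. The 250 bases before each annotated start are printed on the strand of the gene, chr8:4105765-4106014 on the minus strand for Cd209f and chr8:4134486-4134735 on the plus strand for Cd209g. Capitals mark the part of the longest run of letters that is identical in both.
Cd209f: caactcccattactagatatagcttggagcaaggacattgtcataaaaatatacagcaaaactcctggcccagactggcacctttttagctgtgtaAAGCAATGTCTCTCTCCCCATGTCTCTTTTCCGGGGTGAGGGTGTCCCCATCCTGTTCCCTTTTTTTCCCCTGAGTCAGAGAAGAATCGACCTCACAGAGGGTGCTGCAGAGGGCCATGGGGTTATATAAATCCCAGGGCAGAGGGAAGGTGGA
Cd209g: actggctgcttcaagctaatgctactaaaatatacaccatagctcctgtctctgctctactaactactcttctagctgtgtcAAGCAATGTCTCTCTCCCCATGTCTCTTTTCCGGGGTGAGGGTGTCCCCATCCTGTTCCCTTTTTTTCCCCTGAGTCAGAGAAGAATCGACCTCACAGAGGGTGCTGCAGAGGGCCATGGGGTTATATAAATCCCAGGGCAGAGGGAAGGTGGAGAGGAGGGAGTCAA
The identical run was 180 bases long. It went from 154 bases before to 26 bases after the start of Cd209f, and from 168 before to 12 after the start of Cd209g. Only these 2 of 32851 RefSeq windows of 250 bases before and 50 after a start held it (0.00609%), and the other 5 family members shared runs of 7 to 10 bases with Cd209f. TATATAA, the core of a TATA box, began 31 bases before the Cd209f start and 45 bases before the Cd209g start, overlapping its own match on the other strand. It was present, on either strand, in 1065 windows (3.24%). TGAGTCA, the AP-1 consensus, began 83 and 97 bases before the Cd209f and Cd209g starts and was present in 1709 windows (5.2%). Most of the run lies before the starts used for these windows. The RefSeq span of Cd209g given above nevertheless holds its whole printed window. That of Cd209f reaches to 4105838, inside its printed window. The run can thus lie partly in transcribed sequence. How reads were divided between Cd209f and Cd209g in the counting was not tested, so the split of counts between them is uncertain.

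The count of Cd209f varied widely between the Cd209f positive cells. Of the 122 cells, 26 had 1 UMI of Cd209f, 51 had 2 to 5 and 45 had 6 or more. The highest cell of each library had 51 and 23 UMIs in HI, against 29 and 55 in naive. As counts per 1e6 UMIs of the summed cells (CPM), Cd209f stood at 1084 and 846 in HI Cd209f positive cells, against 696 and 795 in naive ones. The Lyve1-high Cd209f positive cells reached 1383 and 1016 CPM in HI, against 1314 and 1215 in naive, so each of the 4 libraries was lower on the Lyve1-low side. Outside the gate, a Cd209f UMI was found in 0.781% and 0.305% of microglia-like cells in HI, against 1.25% and 1.07% in naive, at median depths of 10958.5 to 12949 UMIs. The share was at most 0.686% in monocyte-like cells. No Cd209f UMI was found in neutrophil-like cells, which by a floor of 3 cells allows shares of up to 1.69% to 8.11%, depending on the library.

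The macrophage markers of the gate were high, as the rule requires. Mrc1, the mannose receptor, stood at 3713 and 2453 CPM in HI and 3127 and 3247 CPM in naive Cd209f positive cells, against 2874 to 3271 CPM in the other macrophages. Pf4 stood at 4567 and 5214 CPM in HI and 6069 and 5434 CPM in naive Cd209f positive cells. The haemoglobin scavenger receptor Cd163 had a UMI in 83 of the 122 cells (68.0%), and its level was 848 and 316 CPM in HI, against 252 and 241 CPM in naive. In the other macrophages it was 529 and 493 CPM in HI, against 268 and 266 CPM in naive.

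Ccl24 and Tslp were widely present in these cells, as in the rest of the gate. Ccl24 had a UMI in 99 of 122 Cd209f positive cells (81.1%), in 92.1% of the Lyve1-high Cd209f positive cells and in 85.6% of all other macrophages, against 9.30% to 14.0% of microglia-like cells. Its level was 697 and 231 CPM in HI and 514 and 646 CPM in naive Cd209f positive cells, against 619, 431, 647 and 559 CPM in the other macrophages of the same libraries. Tslp had a UMI in 47 of 122 cells (38.5%), in 43.6% of the Lyve1-high Cd209f positive cells and in 33.8% of the other macrophages, against 0.391% to 2.49% of microglia-like cells. Its level was 65.7 and 59.8 CPM in HI and 61.9 and 78.1 CPM in naive Cd209f positive cells, against 45.7, 35.0, 59.1 and 54.0 CPM in the other macrophages. Ccl24 and Tslp occurred together in 39 cells, Ccl24 without Tslp in 60, Tslp without Ccl24 in 8 and neither in 15. All 4 label markers (Cd209f, Cd163, Ccl24 and Tslp) were found together in 29 cells.

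Cd209f positive cells made up a smaller share of the gate in both HI libraries than in both naive libraries. The share was 0.475% (95% Clopper-Pearson interval 0.266 to 0.781%) and 0.284% (0.156 to 0.477%) in HI, against 1.35% (1.01 to 1.78%) and 0.957% (0.694 to 1.29%) in naive. The groups did not overlap, and the intervals, which cover counting error only, overlapped between HI 1 and naive 2. The means were 0.379 ± 0.134% in HI and 1.16 ± 0.280% in naive (SD, n = 2 each), a difference of -0.776 percentage points with a two-sided exact permutation p of 0.333. That is the smallest p that 2 libraries against 2 can give.

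The share in HI was 0.329 of the share in naive for these cells, and 0.837 of it for Cd209f positive cells at any Lyve1 level. Cells with a Cd209f UMI at any Lyve1 level made up 18.0 ± 2.36% of the gate in HI and 21.6 ± 2.38% in naive (exact permutation p = 0.333). Among these, the cells with at most 1 Lyve1 UMI were 2.41% and 1.74% in HI, against 5.82% and 4.82% in naive, and those with 41 or more were 33.5% and 30.3% in HI, against 28.3% and 25.4% in naive. Gate cells with at most 1 Lyve1 UMI, with or without Cd209f, were 7.85% and 6.22% of the gate in HI, against 11.8% and 7.59% in naive, where the groups overlapped (exact permutation p = 0.667). Among them the Cd209f positive share was 5.31 ± 1.04% in HI and 12.0 ± 0.808% in naive (exact permutation p = 0.333), and after thinning to 3000 UMIs 4.16% and 8.77%. With both limits set on counts thinned to 3000 UMIs, the Cd209f positive Lyve1-low share of the gate was 1.34 ± 0.431% in HI and 2.43 ± 0.817% in naive, a ratio of 0.553 (exact permutation p = 0.333). The share of microglia-like cells with a Cd209f UMI was also lower in HI, at 0.543%, against 1.16% in naive. Its part in the difference of shares was not tested.

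**Figure D1:**
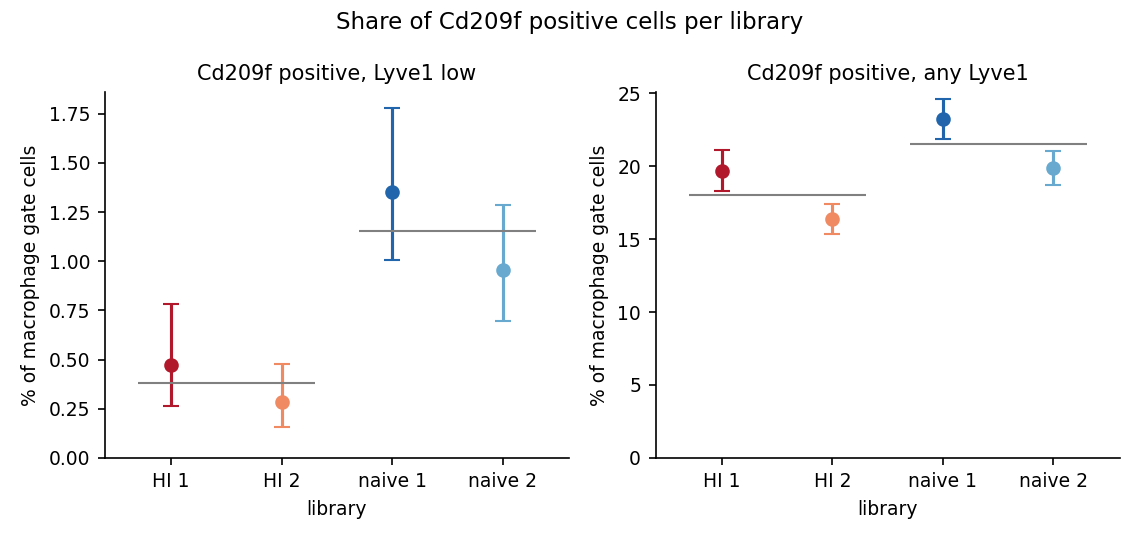
Share of macrophage gate cells that were Cd209f positive with at most 1 Lyve1 UMI (left panel) and Cd209f positive at any Lyve1 level (right panel), in percent, per library with 95% Clopper-Pearson intervals, HI left of naive. The grey lines are group means, 0.379% and 1.16% on the left and 18.0% and 21.6% on the right. Neither panel shows overlap of the HI and naive points.

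The plot of Lyve1 bins follows the same cells along the Lyve1 level.

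**Figure D2:**
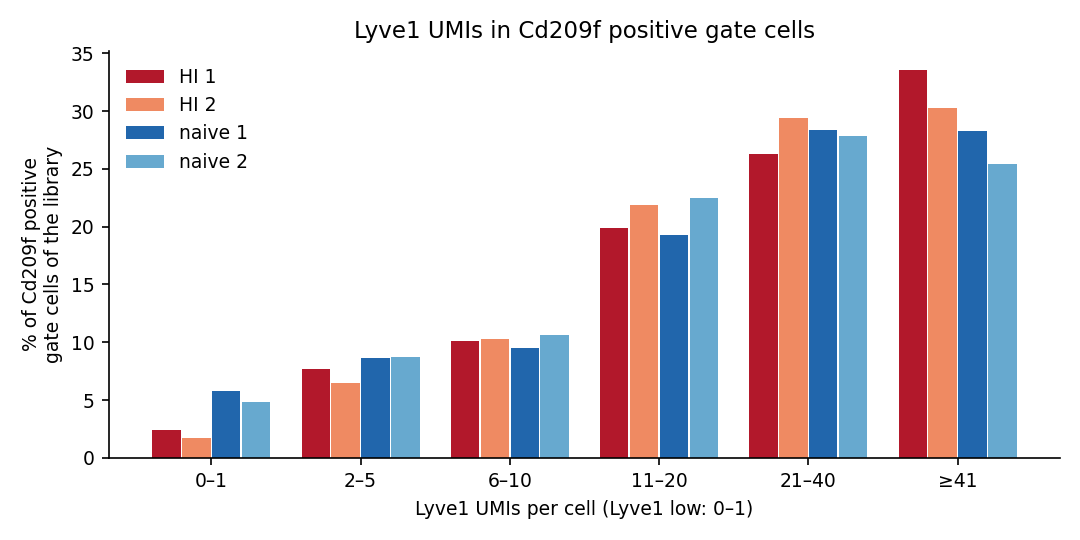
Percent of all Cd209f positive gate cells of a library that fell in each bin of Lyve1 UMIs per cell, HI and naive libraries. The lowest bin, 0 to 1 UMI, holds the 122 cells described here, with 2.41% and 1.74% in HI, against 5.82% and 4.82% in naive.

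Cd209f positive cells carried more RNA of their family neighbours than the other macrophages did. Cd209g had a UMI in 34 of the 122 cells (27.9%), namely 9 of 15 and 5 of 14 in HI, against 8 of 50 and 12 of 43 in naive. The share was 39.8% in Lyve1-high Cd209f positive cells, 0.331% in Cd209f negative Lyve1-low cells and 0.665% in Cd209f negative Lyve1-high cells. The level of Cd209g was 197 and 119.7 CPM in HI and 18.6 and 124 CPM in naive Cd209f positive cells, against 36.0, 18.1, 36.2 and 24.6 CPM in the other macrophages. Cd209f positive cells were higher in all libraries but naive 1. The log2 fold change was 1.70 ± 0.20 (SE; edgeR quasi-likelihood test with library as block, Benjamini-Hochberg adjusted p = 5.81e-14), and the part of reads of Cd209f in this rise was not tested.

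Cd209b rose as well. Its window shares no such run with Cd209f, but only windows around the starts were compared, not the transcripts. The part of reads of Cd209f in this rise was not tested either. It had a UMI in 17 of the 122 cells (13.9%), in 14.4% of the Lyve1-high Cd209f positive cells, in 1.65% of Cd209f negative Lyve1-low cells and in 1.26% of Cd209f negative Lyve1-high cells. Its level was 131 and 68.4 CPM in HI and 16.5 and 39.0 CPM in naive Cd209f positive cells, against 10.5 to 21.5 CPM in the other macrophages. Cd209f positive cells were higher in 4 of 4 libraries (log2 fold change 1.80 ± 0.28, edgeR adjusted p = 7.03e-08). Against Lyve1-high Cd209f positive cells, where 182 of 10194 genes were called (1.79%), neither gene passed the test, with -0.53 for Cd209g (edgeR adjusted p = 0.279) and -0.19 for Cd209b (edgeR adjusted p = 0.841). Between all 3181 Cd209f positive and the Cd209f negative gate cells, where 835 of 12275 genes were called (6.8%), Cd209b rose by 4.18 ± 0.08 (edgeR adjusted p = 1.65e-13).

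Detection of both genes was higher in cells with more Cd209f UMIs, with the depth of the cells not held equal and no test made. Cd209g was found in 3.85% of Cd209f positive cells with 1 Cd209f UMI, in 23.5% of those with 2 to 5 and in 46.7% of those with 6 or more. For Cd209b the shares were 7.69%, 11.8% and 20%. The same steps in the Lyve1-high Cd209f positive cells gave 11.6%, 21.4% and 54.5% for Cd209g, and 3.53%, 8.45% and 19.5% for Cd209b. Per 100 Cd209f UMIs, Cd209f positive cells had 18.2 and 14.1 Cd209g UMIs in HI, against 2.67 and 15.6 in naive. The naive 1 value rests on 9 Cd209g UMIs and lies below the 9.97 to 12.5 of the Lyve1-high cells.

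**Figure D3:**
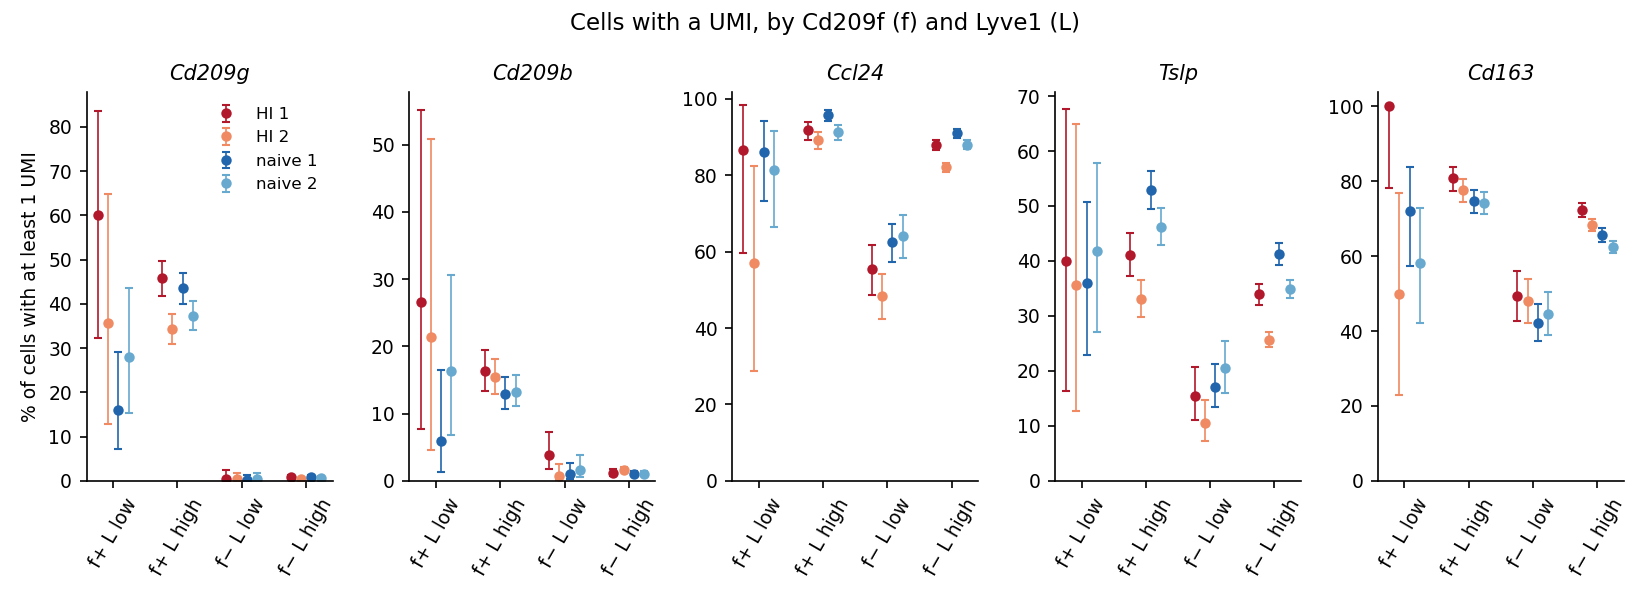
Percent of cells with at least 1 UMI of Cd209g, Cd209b, Ccl24, Tslp and Cd163 in Cd209f positive (f+) and negative (f-) gate cells with at most 1 (L low) or at least 2 (L high) Lyve1 UMIs, per library with 95% Clopper-Pearson intervals. In each library Cd209g and Cd209b had a UMI in a larger share of f+ than of f- cells. Cd209g reached 27.9% of all f+ L low and 39.8% of all f+ L high cells, and Cd209b 13.9% and 14.4%. Every gene shown occurs in all 4 classes.

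The other family members were too thinly counted to describe as expressed. Cd209a, a marker of one class of dendritic cell, passed the test, but 90.2% of its 41 UMIs in Cd209f positive cells came from 1 cell of naive 1. Its log2 fold change was 2.99 and became -0.35 (edgeR adjusted p = 0.925) with the highest cell of each gene left out of each sum. Cd209c had 8 UMIs in 4 cells, and its call (log2 fold change 2.86, edgeR adjusted p = 0.0175) was lost without HI 1, naive 1 or naive 2. Cd209d had 1 UMI and Cd209e had 2.

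Across all genes, 267 of 11879 tested (2.25%) passed an edgeR adjusted p under 0.05 between Cd209f positive cells and the other macrophages, 75 of them higher (0.631%) and 192 lower (1.62%). DESeq2 called 149, of which 88 were higher. With DESeq2's size factors in edgeR the split was 137 higher and 133 lower, against 75 and 192 under edgeR's own TMM scaling. The median log2 difference over all genes was then -0.01, against -0.06 under TMM. Of the 75 higher calls, 17 had more than 50% of their UMIs in 1 cell and 60 were found in at least 12 of the 122 cells. Of the 192 lower calls, 168 were found in at least 12 cells. The gene lists used below were chosen with earlier results of these data known, so their counts are a description.

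Of 9 tested genes of a cytokine list, Il18 rose and none fell, and Ebi3, which is not on that list, rose as well. Ebi3, a subunit shared by the cytokines IL-27 and IL-35, stood at 329 and 291 CPM in HI and 357 and 363 CPM in naive Cd209f positive cells, against 198, 209, 239.6 and 253 CPM in the other macrophages. It was found in 106 of the 122 cells and was higher in every library (log2 fold change 0.56 ± 0.11, edgeR adjusted p = 0.00013). Il18, an inflammasome-processed cytokine, stood at 78.9 and 42.7 CPM in HI and 86.7 and 85.4 CPM in naive Cd209f positive cells, against 35.8, 44.5, 33.2 and 41.2 CPM in the others. All libraries but HI 2 were higher (1.06 ± 0.19, edgeR adjusted p = 7.35e-06). Both genes kept their call under each of the alternatives run, except that DESeq2 gave no adjusted p for Il18. Igf1, a growth factor, rose by 0.46 ± 0.10 (edgeR adjusted p = 0.000732), a call lost without naive 2 (0.31, adjusted p = 0.383). Of the same list of 12 growth and vascular factors, Bmp2, a ligand of the TGF-beta family, fell by 1.04 ± 0.26 (edgeR adjusted p = 0.00577) and Egfl7, a secreted vascular factor, by 0.49 ± 0.15 (edgeR adjusted p = 0.0412). Bmp2 lost its call without naive 2, and Egfl7 without HI 1, naive 1 or naive 2 and with DESeq2's size factors. Both lost it with likely doublets left out.

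Of 12 other C-type lectins tested, 3 rose and none fell, with a median of 0.32 against -0.06 over all genes, of which 0.631% rose. Clec4a1, a relative of the receptor Dcir, stood at 460.0 and 479 CPM in HI and 413 and 437 CPM in naive Cd209f positive cells, against 327, 328, 273 and 292 CPM in the others (0.54 ± 0.11, edgeR adjusted p = 5.52e-05). It was higher in 4 of 4 libraries and kept its call under each alternative run. Clec4n, which encodes the fungal receptor Dectin-2, rose by 0.48 ± 0.11 (edgeR adjusted p = 0.00105), a call lost without naive 2. Clec2d rose by 0.45 (edgeR adjusted p = 0.033), a call lost without HI 1, naive 1 or naive 2. Both Clec4n and Clec2d also lost it with likely doublets left out.

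Rises were also found in genes with no single theme. Cited2, a coregulator that binds the acetyltransferases CBP and p300, rose by 0.66 ± 0.16 (edgeR adjusted p = 0.0027). The linker histone Hist1h1c rose by 0.84 ± 0.20, Ypel3 by 0.57 ± 0.13 and the noncoding Epb41l4aos by 0.75 ± 0.17, each with an edgeR adjusted p under 0.05 and each higher in 4 of 4 libraries. Each of these 4 genes lost its call without 1 of the libraries, naive 2 for Hist1h1c and Ypel3, naive 1 for Epb41l4aos and HI 1 for Cited2, and Epb41l4aos and Cited2 also with likely doublets left out. The neuronal gene Stmn2, a microtubule regulator, stood at 13.1 and 51.3 CPM in HI and 35.1 and 26.8 CPM in naive Cd209f positive cells, against 4.07, 6.27, 18.1 and 13.3 CPM in the others (1.29 ± 0.34, edgeR adjusted p = 0.013). The call was lost without HI 2, naive 1 or naive 2 and without the highest cell. Stmn2 was the only 1 of 10 neuron and glia markers to pass. The summed level of these 10 markers was 92.0 and 154 CPM in HI and 227 and 171 CPM in naive Cd209f positive cells, against 53.1 to 197 CPM in the others, and its part in the Stmn2 result was not tested. Ppp1r1a, Rapsn, Camk2a, Ifi203 and Ptpre also rose, by 0.56 to 1.49, with edgeR adjusted p from 0.0172 to 0.0482, and each lost its call without some of the libraries.

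Genes that accompany Lyve1 were lower in Cd209f positive cells than in the other macrophages and, for several, higher than in Cd209f negative cells with equally little Lyve1. Of 12 such genes tested against the other macrophages, 5 fell and 1, Cd209b, rose, with a median of -0.74. The rule kept only cells with at most 1 Lyve1 UMI. Of the 16150 other macrophages, 3059 Cd209f positive and 11882 Cd209f negative cells were Lyve1-high. This test thus cannot separate the falls from the choice of cells by Lyve1, and its p-values are no separate finding. That limit holds for Folr2, Ednrb, Fcna, Timd4 and Ltc4s. All other genes compared with the other macrophages, above and below, share this mostly Lyve1-high reference. Against Cd209f negative Lyve1-low cells, where 375 of 8742 genes were called (4.29%, with 1.44% higher), 6 of 11 rose and none fell, with a median of 0.44. These negative cells carried neutrophil markers at 4771 and 3467 CPM in HI and 417 and 472 CPM in naive, and classical monocyte markers at 449 to 1307 CPM, against at most 22.7 and 103 CPM in Cd209f positive cells. The part of these markers in the rises was not tested. Folr2, the folate receptor beta, stood at 237 and 265 CPM in HI and 196 and 168 CPM in naive Cd209f positive cells. The other macrophages had 519, 425, 572 and 500.1 CPM, and the Cd209f negative Lyve1-low cells 91.1, 76.6, 142 and 146 CPM. In all 4 libraries Folr2 lay between these classes. It fell by 1.34 ± 0.12 against the other macrophages (edgeR adjusted p = 1.99e-26) and rose by 0.82 against the Lyve1-low negative cells (edgeR adjusted p = 0.00778).

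Ednrb, the endothelin receptor B, followed the same order, with 519 and 325 CPM in HI and 413 and 302 CPM in naive Cd209f positive cells. The other macrophages had 579, 512, 686 and 618 CPM and the Lyve1-low negative cells 216, 211, 276 and 248 CPM. Fcna, the secreted lectin ficolin A, stood at 184 and 915 CPM in HI and 239 and 209.8 CPM in naive Cd209f positive cells, against 936 to 1149.7 CPM in the others. HI 2 stood far above the other libraries, and 1 cell gave 19.6% of the Fcna UMIs of all Cd209f positive cells. Fcna fell by 1.69 ± 0.11 (edgeR adjusted p = 2.54e-54). The phosphatidylserine receptor Timd4 had 0 and 8.55 CPM in HI and 16.5 and 7.32 CPM in naive Cd209f positive cells, against 33.2 to 71.5 CPM in the others (-2.59 ± 0.32, edgeR adjusted p = 6.69e-13). Ltc4s, leukotriene C4 synthase, fell by 0.78 ± 0.10 (edgeR adjusted p = 1.98e-13). Against Lyve1-low negative cells neither Timd4 (-0.93, edgeR adjusted p = 0.303) nor Ltc4s (0.15, edgeR adjusted p = 0.537) passed.

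**Figure D4:**
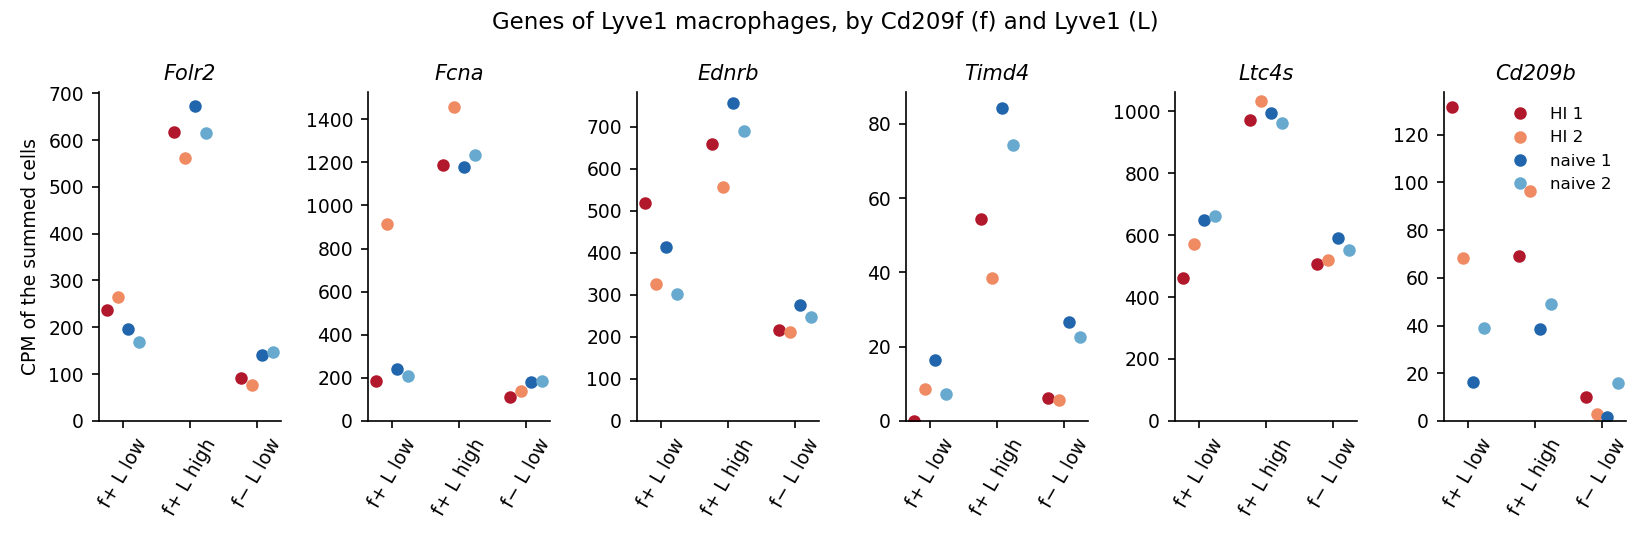
CPM of Folr2, Fcna, Ednrb, Timd4, Ltc4s and Cd209b per library in Cd209f positive Lyve1-low (f+ L low), Cd209f positive Lyve1-high (f+ L high) and Cd209f negative Lyve1-low (f- L low) cells. Folr2 and Ednrb of the f+ L low cells lie below f+ L high and above f- L low in all 4 libraries.

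Chaperones of the endoplasmic reticulum and CC chemokines were lower than in the other macrophages. Of 18 unfolded protein response genes tested, 8 fell and none rose, with a median of -0.44, against 1.62% of all genes lower. Without 1 library, between 2 and 6 of them fell, and 4 did so with DESeq2's size factors. The summed list stood at 4975 and 3923 CPM in HI and 3100 and 3412 CPM in naive Cd209f positive cells. Cd209f negative Lyve1-low cells had 4714 and 5179 CPM in HI and 3965 and 3964 CPM in naive, so HI 1 was not lower against them. Hspa5 (BiP), the main chaperone of the list, stood at 585 and 479 CPM in HI and 351 and 346 CPM in naive Cd209f positive cells, against 726 and 722 CPM in HI and 516 and 554 CPM in naive other macrophages. It was lower in 4 of 4 libraries (-0.56 ± 0.10, edgeR adjusted p = 9.6e-06). Calreticulin, Calr, fell by 0.62 ± 0.12 (edgeR adjusted p = 2.2e-05), and both kept their call under each alternative run. Xbp1, a transcription factor of the response, fell by 0.61 ± 0.13 (edgeR adjusted p = 0.00038), a call lost without naive 1.

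Of 8 CC chemokines tested, Ccl6, Ccl9 and Ccl2 fell and none rose, with a median of -0.72, against 1.62% of all genes lower. Ccl6 stood at 105 and 179 CPM in HI and 80.5 and 117 CPM in naive Cd209f positive cells, against 277, 222, 204 and 167 CPM in the others (-0.91 ± 0.14, edgeR adjusted p = 3.81e-08), lower in 4 of 4 libraries. Ccl9 fell by 0.99 ± 0.16 (edgeR adjusted p = 7.03e-08), and against Lyve1-low negative cells it missed the threshold (-0.69, edgeR adjusted p = 0.0908). The call for Ccl2 (-0.52, edgeR adjusted p = 0.0152) was lost without HI 1, naive 1 or naive 2. Summed over the list, CC chemokines stood at 1465 and 2419 CPM in HI and 1160 and 1102 CPM in naive Cd209f positive cells. Cd209f negative Lyve1-low cells were close, with 1534 and 2053 CPM in HI and 1320 and 1178 CPM in naive. Among 26 transcription factors only Klf2 passed, with 6.57 and 8.55 CPM in HI and 10.3 and 26.8 CPM in naive Cd209f positive cells, against 21.2, 42.7, 45.5 and 88.8 CPM in the others (-1.89 ± 0.30, edgeR adjusted p = 6.14e-08). Klf2, a factor that restrains inflammatory activation in myeloid cells, rests on 18 UMIs.

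Of 25 cell cycle genes, 7 fell and none rose, with a median of -0.63, against 1.62% of all genes lower. Their summed level in naive 1 was nearly equal, at 1340 CPM against 1359 CPM in the other macrophages. DESeq2 called 0 of them, but it gave no adjusted p for 22 of the 24 named genes of this comparison. A missing DESeq2 call can thus be a missing test. Mcm6, a replication helicase subunit, stood at 32.9 and 59.8 CPM in HI and 22.7 and 31.7 CPM in naive Cd209f positive cells, against 58.3, 58.7, 60.2 and 76.2 CPM in the others (-1.06 ± 0.23, edgeR adjusted p = 0.000542). HI 2 was not lower, and the call was lost without naive 1 or naive 2 and with likely doublets left out. The proliferation marker Mki67 was found in 7 cells, all naive.

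The lowest genes by fold had few or no UMIs here, and many of them, though not Impdh1, were genes of other cells or of small groups of macrophages. Retnla, a type 2 response gene, had 0 UMIs in the 122 cells, against 192, 69.5, 93.8 and 67.9 CPM in the other macrophages. The ratio to a floor of 3 UMIs over all Cd209f positive cells was 38.9. This floor does not cover the spread between cells, so the ratio is no lower bound. Only 1.45% of the other macrophages had a Retnla UMI, so 122 cells are few for seeing it. The neutrophil genes S100a8, with 3 UMIs, and S100a9, with 1, fell against 360.3, 192, 42.5 and 35.4 CPM of S100a8 in the others. Neutrophil markers summed to 8.55 to 22.7 CPM in Cd209f positive cells, with 5 of 9 at 0, and to 807 and 328 CPM in HI and 86.9 and 90.3 CPM in naive other macrophages. With likely doublets left out of both classes, S100a8 was at 1.60, the opposite direction. That filter counts neutrophil markers itself, so the value is no check of the S100a8 difference. The part of neutrophil RNA in these values was not tested. Also without a UMI were Gpnmb, 2010005H15Rik and Stfa2l1, and 1 or 2 UMIs were left of BC100530, Stfa1, Gm5483, Ifitm1, Fn1 and Impdh1, an enzyme of guanine nucleotide synthesis found in 13.7% of the other macrophages.

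MHC class II genes showed 5 of 10 higher and a median of 0.70, but these values belong to very few cells. One cell of naive 1 gave 93.3% of the H2-Aa, 96.0% of the H2-Ab1 and 95.1% of the H2-Eb1 UMIs. H2-Aa was found in only 2 of the 122 cells. Without the highest cell of each gene, Cd74, the invariant chain, was at -1.01. Among other cell type lists, Cd79a (2.72) of 5 B cell markers, Treml4 (2.14) of 7 non-classical monocyte markers and Ttr (0.90) of 2 choroid plexus markers rose, with 100%, 60% and 91.6% of their UMIs in 1 cell. Without the highest cell of each gene Ttr was at -3.00 and Treml4 at 1.24 (edgeR adjusted p = 0.476). Leaving out 1 cell takes far more from a sum of 14 to 50 Cd209f positive cells than from the other macrophages. In naive 1, 294 of 297 Ttr UMIs of Cd209f positive cells came from 1 cell. The values for Ttr and Cd74 are thus no measure of a fall. Ttr had a UMI in 12 of the 122 cells (9.84%), against 5.60% to 7.26% in the other gate classes. Of 6 classical monocyte markers, 2 fell and none rose. Cx3cr1, the fractalkine receptor, fell by 0.41 ± 0.10 (edgeR adjusted p = 0.00462) as 1 of 6 microglial markers, a call lost without naive 1 or naive 2. Of 15 glucocorticoid response genes, 22 interferon response genes and 16 clock genes tested, none passed in either direction. Markers of fibroblasts (6 tested), endothelial cells (2) and T and NK cells (2) had no call either, and erythroid markers were at 0 in every library.

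HI against naive within the Cd209f positive cells gave few calls. Of 4015 genes tested, 7 passed an edgeR adjusted p under 0.05 (0.174%), 5 higher (0.125%) and 2 lower (0.0498%). At an unadjusted p under 0.05 there were 255 genes, and DESeq2 called 3, with Vcam1 among them. With Cd209f of at least 2 UMIs as the limit, none passed. The higher genes were Vcam1, Lmna, Ccl9, Srgn and Lilrb4a, and Cd9 was among the lower ones.

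Lmna, which encodes the nuclear lamins A and C, stood at 177 and 111 CPM in HI Cd209f positive cells, against 28.9 and 29.3 CPM in naive ones. The groups were well apart, and the UMIs came from 37 cells. The log2 fold change was 2.35 ± 0.36 (edgeR adjusted p = 0.0279). The call was kept without each library and lost with DESeq2 (adjusted p = 0.0823). The adhesion molecule Vcam1 stood at 65.7 and 179 CPM in HI, against 8.26 and 12.2 CPM in naive (3.50 ± 0.60, edgeR adjusted p = 0.0383). It was found in 12 cells only, and without HI 2 the value was 2.62 (edgeR adjusted p = 0.363). Without the highest cell it was 4.55 (edgeR adjusted p = 0.0623).

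The chemokine Ccl9 stood at 237 and 119.7 CPM in HI Cd209f positive cells, against 41.3 and 43.9 CPM in naive ones (2.12 ± 0.35, edgeR adjusted p = 0.0383), and without HI 1 it missed the threshold (1.56, adjusted p = 0.102). The granule proteoglycan gene Srgn stood at 322 and 436 CPM in HI, against 101 and 156 CPM in naive (1.58 ± 0.27, edgeR adjusted p = 0.0383), and without HI 2 (1.29, adjusted p = 0.145) or naive 1 (1.27, adjusted p = 0.0852) it missed it. Lilrb4a, an inhibitory immunoglobulin-like receptor, stood at 138 and 162 CPM in HI, against 41.3 and 43.9 CPM in naive (1.82 ± 0.32, edgeR adjusted p = 0.045). For all 3 genes the HI libraries lay above the naive ones. The Lilrb4a call was lost without HI 2 (1.65, adjusted p = 0.145) and without the highest cell (1.48, adjusted p = 0.303).

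The tetraspanin gene Cd9 stood at 13.1 and 17.1 CPM in HI Cd209f positive cells, against 114 and 249 CPM in naive ones (-3.53 ± 0.63, edgeR adjusted p = 0.045). Both HI libraries lay below both naive ones. In naive 2, 79 of the 102 Cd9 UMIs came from 1 cell. With limits on counts thinned to 3000 UMIs the value was 1.00, the opposite direction (edgeR adjusted p = 0.362). Without HI 2 Cd9 was at -3.77 (edgeR adjusted p = 0.124).

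In the other macrophages, where 414 of 13594 genes were called (3.05%), Lmna (1.78, edgeR adjusted p = 0.00847), Vcam1 (2.01, adjusted p = 0.00634) and Ccl9 (0.68, adjusted p = 0.0478) also rose. Srgn (0.96, adjusted p = 0.0746), Lilrb4a (0.38, adjusted p = 0.169) and Cd9 (-0.40, adjusted p = 0.558) did not pass there. Over the whole gate 428 of 13610 genes were called (3.14%), and 0 without naive 1 or naive 2. A test of the difference between the HI effects called 18 of 12477 genes (0.144%), with Lilrb4a (1.39, edgeR adjusted p = 0.0398) and Cd9 (-3.31, adjusted p = 2.03e-07) among them. Both lost that call with the highest cell of each gene left out.

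**Figure D5:**
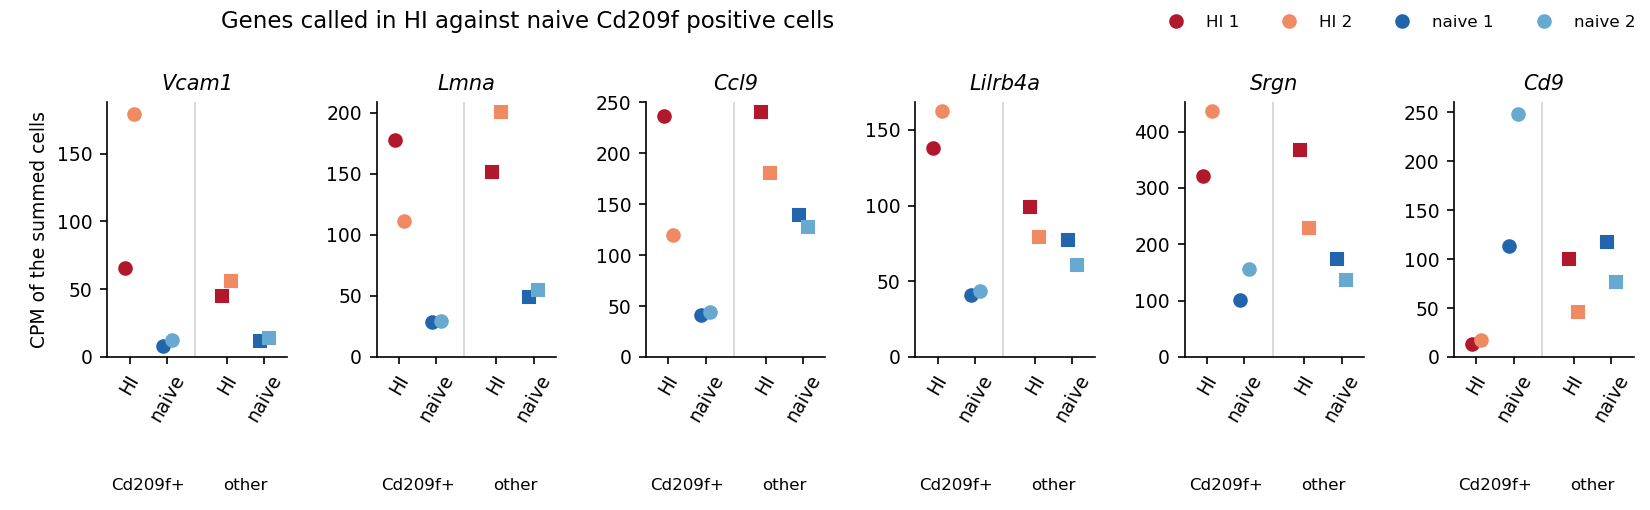
CPM of 6 genes called between HI and naive in Cd209f positive cells (circles), with the other macrophages beside them (squares), per library, HI left of naive. Lmna stands at 177 and 111 CPM in HI circles and 28.9 and 29.3 CPM in naive circles, and the squares show the same order.

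Between HI and naive in the 122 cells, Ccl9 rose and none fell of 6 CC chemokines tested, whose median was 0.85. Of 16 phagocyte and lipid genes tested, Cd9 fell and none rose. Of 14 unfolded protein response genes tested, 0 passed, with a median of 0.50, against 0.00 over all genes. Of 14 hypoxia and glycolysis genes, 9 interferon response genes and 12 homeostatic genes of border macrophages tested, 0 passed. The chemokine gene Ccl12 stood at 118 and 1291 CPM in HI, against 192 and 119.5 CPM in naive (2.16, edgeR adjusted p = 0.398). The HI libraries fell on both sides of the naive ones. Metallothionein 1, Mt1, stood at 894 and 2256 CPM in HI, against 636 and 673 CPM in naive (1.30, edgeR adjusted p = 0.258). Ebi3 (-0.19), Il18 (-0.43), Ccl24 (-0.27) and Tslp (-0.12) had edgeR adjusted p of 0.925 or more.

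With the limit on Lyve1 removed, the 3181 Cd209f positive gate cells gave 288 calls between HI and naive among 11383 genes (2.53%), 171 higher (1.5%) and 117 lower (1.03%). The difference of the HI effect between these cells and the Cd209f negative ones was called for 14 of 12820 genes (0.109%). Lmna stood there at 159.8 and 221 CPM in HI, against 44.6 and 55.8 CPM in naive (1.94 ± 0.17, edgeR adjusted p = 0.000933). Vcam1 stood at 44.0 and 57.4 CPM in HI, against 10.7 and 12.0 CPM in naive (2.18 ± 0.16, edgeR adjusted p = 0.000525). Ccl9 and Srgn also rose, by 0.78 and 1.04, while Lilrb4a (0.18, edgeR adjusted p = 0.344) and Cd9 (-1.32, adjusted p = 0.186) did not pass. These cells share the 122 cells and the libraries, so they are no independent set.

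In the same 3181 cells, 11 of 18 unfolded protein response genes rose (median 0.36), 7 of 26 hypoxia and glycolysis genes (0.35), 4 of 9 CC chemokines (0.40) and 4 of 16 glucocorticoid response genes (0.62), and none of these lists had a fall. Fkbp5, a glucocorticoid-induced cochaperone, stood at 12.2 and 13.7 CPM in HI, against 2.80 and 2.56 CPM in naive (2.28, edgeR adjusted p = 0.000968). Tslp stood at 56.9 and 45.2 CPM in HI, against 76.9 and 74.9 CPM in naive (-0.57 ± 0.10, edgeR adjusted p = 0.0201). This fall was lost without HI 2, naive 1 or naive 2. Cd209b stood at 70.2 and 96.2 CPM in HI, against 37.4 and 48.4 CPM in naive (0.98 ± 0.17, edgeR adjusted p = 0.021), a rise lost without naive 1 (0.80, adjusted p = 0.086). In the 122 cells Cd209b was at 1.94 (edgeR adjusted p = 0.232) and Cd209g at 1.25 (edgeR adjusted p = 0.783).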

How the data were processed

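Single-cell RNA of the meninges was measured with a 10x 5' kit, per the labels' protocols. The deposited files hold raw UMI counts per gene and cell for 4 libraries, which the authors made with Cell Ranger 2.2.0 on mm10 (GRCm38), per the submitters' processing notes, which also name Seurat 3.027. The 8 immune receptor libraries were not used here. The members and gene lists were chosen with earlier results of these data known.

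The cell filter asked for 200 or more genes and a mitochondrial share no higher than 10%. It left 4212, 6410, 5122 and 5945 cells in HI 1, HI 2, naive 1 and naive 2, and the gate was applied to their raw counts. Cell filtering before deposit is not given in the sources used here. Doublets were kept. In an alternative, cells with at least 3 UMIs of other-lineage markers or in the top 5% by UMIs were left out. These markers were the summed lists of B cells, T and NK cells, neutrophils, fibroblasts, endothelial cells and erythroid cells. This left 12, 13, 34 and 32 Cd209f positive cells. Of the gate it left 2225 of 3161 cells in HI 1, 3807 of 4923 in HI 2, 2500 of 3696 in naive 1 and 3283 of 4492 in naive 2. The cells left out were not shown to be doublets. Microglia-like, neutrophil-like and monocyte-like cells for the background were set by marker counts, not by clustering.

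Counts were summed per library and class and tested with edgeR 4.0.16 (filterByExpr, TMM, quasi-likelihood F test, Benjamini-Hochberg adjusted p under 0.05 over all genes tested) in R 4.3.3, with DESeq2 1.42.0 as an alternative. The library was a block between classes, and HI against naive had none. Differences of shares used exact permutation tests over libraries (scipy 1.17.1). Intervals and floors cover counting error only, and a floor is 3 UMIs. Where a class has 0 UMIs of a gene, a fitted fold change depends on the prior count and is no bound. The summed depth of 117003 to 484448 UMIs in Cd209f positive cells limits the precision.

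Genes were named by rule: up to 12 higher and 12 lower by fold among genes past the threshold, with at least 10 CPM in the higher group and the same direction in all libraries, up to 5 each way for the difference of HI effects, the label's markers, the Cd209 family, and up to 5 per list with the smallest p. Genes of the gating rule were left out of these tests. One gene that the rule names is not reported here. On simulated counts with 2-fold and 4-fold changes, 15% and 70% of changed genes were recovered for HI against naive (4044 genes) and 38% and 69% for Cd209f positive cells against the other macrophages (11932 genes).

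Alternatives changed the scaling, the count filter, the tool, the limits on cells, the thinning to 3000 UMIs and the libraries used. The wider class with no limit on Lyve1 against other cells, the Lyve1-high class in its place, and the sums without the highest cell of each gene were added after seeing the data. Leaving out the highest cell takes a larger part of a sum of few cells. The deviations of same-numbered libraries correlated at 0.00 over 4024 genes in Cd209f positive cells and at 0.11 over 13612 in the gate. With 2 pairs and no label that ties a number to a run, numbers were not taken as pairs.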

Additional observations from a re-analysis of the deposited data

Results flagged for a closer look

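For 10 genes the HI effect (log2 fold change of HI over naive) in Cd209f positive cells differed from that in the other macrophages by an edgeR test of the difference itself. The fitted difference was 14.17 for Cd79a and 13.51 for Ly6d, genes of B cells, with 26 and 13 UMIs in 1 cell of HI 2 and 0 in the other libraries. It was 2.93 for the chemokine gene Cxcl16, 1.86 for Fscn1 and 1.39 for Lilrb4a. It was -13.13 for S100a6, which had 0 UMIs in HI, and 21 and 11 in naive Cd209f positive cells, -4.71 for Serpine2, -4.22 for Ube2c, -3.31 for Cd9 and -2.16 for Ptgds. The values for Cd79a, Ly6d and S100a6 depend on the prior count and are no measure of size. All 10 lost the call with the highest cell of each gene left out of each sum.

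For 5 genes the HI effect in all 3181 Cd209f positive gate cells differed from that in Cd209f negative gate cells by the same kind of test. The difference was -5.06 for H2-Aa, -4.66 for H2-Eb1 and -4.05 for H2-Ab1, genes of MHC class II antigen presentation, -3.60 for Gpnmb and -3.49 for Cxcl2. H2-Aa stood at 0.125 and 1.39 CPM in HI, against 38.6 and 60.4 CPM in naive Cd209f positive cells, and at 24.5 and 20.4 CPM in HI, against 33.2 and 47.7 CPM in naive Cd209f negative cells. Its UMIs in Cd209f positive cells came from 21 of the 3181 cells. H2-Aa, H2-Eb1 and H2-Ab1 kept the call without the highest cell, and Gpnmb and Cxcl2 did not. In naive 1, however, 1 Lyve1-high cell held 298 of 302 H2-Aa UMIs, and 1 Lyve1-low cell held 125. Without the highest cell, nearly all H2-Aa UMIs of naive 1 thus came from 1 other cell. The kept call does not free the H2-Aa result from single cells.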

How the results depend on the processing

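The lower share of Cd209f positive cells in HI kept its direction under each alternative run, and without 1 library it lay between -0.578 and -0.973 percentage points. Counts of calls moved more. HI against naive in Cd209f positive cells gave 7 calls, and 46 with no filter on low counts, 3 with DESeq2, 0 with Cd209f of at least 2 UMIs, 40 with limits on thinned counts, 12 with likely doublets left out, 288 with no limit on Lyve1, and 9 to 66 without 1 library (66 without HI 1, 17 without naive 1, 21 without naive 2). Cd209f positive cells against the other macrophages gave 267 calls, and 149 with DESeq2, 429 with thinned limits, 835 with no limit on Lyve1 and 134 to 249 without 1 library (134 without naive 1, 141 without naive 2). The difference of HI effects gave 18 calls, and 2 with DESeq2, 7 with Cd209f of at least 2 UMIs, 52 with thinned limits, 2 with doublets left out, 3 against Cd209f negative Lyve1-low cells, 1 without the highest cell and 10 to 41 without 1 library. With no limit on Lyve1, HI against naive gave 288 calls and 97 to 265 without 1 library (116 without naive 1, 97 without naive 2), and the difference of HI effects gave 14 calls, 44 to 49 without 1 library and 8 without the highest cell. In the whole gate HI against naive gave 428 calls, 1375 with no filter, 847 with DESeq2 and 0 to 1164 without 1 library, 0 of them without naive 1 or naive 2. The replicate block, whose pairing the labels do not state, gave 35 calls in Cd209f positive cells and 1446 in the whole gate.

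Of 760 alternatives of named genes, 538 kept direction and call, 185 lost the call, 10 gained it and 27 turned sign, and DESeq2 gave no adjusted p for 22 others; the causes were not tested. With thinned limits the sign turned for Cd9 (1.00 for HI against naive, 1.39 for the difference of HI effects), Stfa2l1 (1.52), S100a9 (1.52), S100a8 (0.83), BC100530 (2.25), Stfa1 (1.55), Gm5483 (1.88), and, for the difference of HI effects, Lilrb4a (-0.0098), S100a6 (1.37) and Ube2c (0.46). With doublets left out, by a filter that itself counts neutrophil markers, it turned for S100a8 (1.60). With no limit on Lyve1 it turned for Hist1h1c (-0.035), Ptpre (-0.032), Ypel3 (-0.039), Retnla (0.48) and Impdh1 (0.25), and, for the difference of HI effects, Cd79a (-0.71), Ly6d (-0.40), Lilrb4a (-0.22) and Ptgds (0.37). It turned for Cd209b against Lyve1-high Cd209f positive cells (-0.19) and for Ptgds against Cd209f negative Lyve1-low cells (0.44). In the whole gate, values without 1 library spanned 0 for Cd209f (-0.60 to 0.038), Cd209g (-0.69 to 0.27) and Ccl24 (-0.44 to 0.048), where the sign turned without HI 2, and for Cd209g also without naive 1 (0.12). The 29 HI cells limit what the comparison of HI with naive can show.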
